A study of Mus musculus with 2 samples.

Results

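The genes described here encode the proteins of the cytoplasmic ribosome, together with the pseudogenes named after them. Members were taken by symbol. A gene entered if it was in both deposited gene tables and its symbol began with Rpl or Rps followed by a number, the letter p, a or X, and Rps6k kinases were left out. This gave 349 members among 43346 Ensembl genes. There were 77 parent genes, 257 named pseudogenes with -ps in the symbol, 14 paralogues or retrocopies without that suffix, and Rps19bp1, which encodes a binding partner of a ribosomal protein. Polyadenylated RNA was sequenced from 1 group of 2 libraries, labelled biological replicates 1 and 2, of the gonadal fat pad of C57BL/6J mice aged 8 weeks. The tissue was pooled from male and female littermates, with no treatment and no second genotype named. Both libraries carry the same donor identifier, so how many mice stand behind each was not resolved here, and there is no second condition and therefore no test or p-value. Values are given for replicate 1 and then replicate 2.

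Most ribosomal proteins are present in equal number in a ribosome, and a parent gene usually makes a short, very abundant mRNA. Such mRNAs are often copied back into the genome by retrotransposition. The resulting processed pseudogene lacks introns and the parent's promoter, and a recent one can match the parent's coding sequence base for base. A sequencing read from a matching stretch does not by itself tell which of the genes it came from, and an estimated count divides such reads between them. The deposited expected count is an estimate of this kind, in fragments, and it need not be whole. TPM scales it by transcript length and to a fixed total per library, so TPM levels of different genes may be compared.

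The results turn on how far a copy can be told from its parent within a read of 76 nt, so stretches of that length are printed first. Each is the stretch of coding sequence, without gaps, where the pseudogene named last in its set differs most from the parent. Capitals mark bases that differ from the parent, the sequences are from GENCODE M21 transcripts on mm10, and positions count from the first base of the parent's start codon. For Rplp0, which encodes the base of the ribosomal stalk, the stretch runs from base 639 to 714 and is shown with its 4 processed copies. Rplp0 lies at chr5:115559467-115563727 on the plus strand. Rplp0-ps1 lies at chr3:93278141-93279073, inside an intron of Flg on the same strand, Gm8730 at chr8:102864845-102865798 on the minus strand, Gm9625 at chr13:67810246-67811200 and Gm14165 at chr2:152353615-152354566, the last pair on the plus strand.
Rplp0: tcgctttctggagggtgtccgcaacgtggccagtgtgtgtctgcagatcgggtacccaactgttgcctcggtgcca
Gm8730: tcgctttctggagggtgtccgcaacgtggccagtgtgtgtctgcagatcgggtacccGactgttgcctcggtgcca
Gm9625: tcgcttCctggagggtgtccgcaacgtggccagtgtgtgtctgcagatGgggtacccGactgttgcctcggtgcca
Gm14165: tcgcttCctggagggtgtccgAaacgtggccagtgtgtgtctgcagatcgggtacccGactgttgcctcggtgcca
Rplp0-ps1: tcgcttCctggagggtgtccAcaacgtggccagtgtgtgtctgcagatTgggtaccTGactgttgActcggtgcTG
In this stretch Gm8730 differed from Rplp0 at 1 base, Gm9625 and Gm14165 at 3 each and Rplp0-ps1 at 8. Over the coding sequence Gm8730 differed at 12 bases, Gm9625 at 24, Gm14165 at 25 and Rplp0-ps1 at 40 of the 933 bases it aligned with. Of the 876 stretches of read length in the Rplp0 coding sequence, 167 were identical in Gm8730 and 18 in Rplp0-ps1.

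Most pseudogenes with high counts were closer to the parent than that. The next pairs are from Rpl14 and Rps13, which encode proteins of the large and the small subunit, and from Rpl39, which encodes a small protein lining the tunnel through which the new chain leaves. The stretches run from base 348 to 423, 354 to 429 and 21 to 96. Rpl14-ps1 lies at chr7:45324965-45325617 on the plus strand, inside an intron of Trpm4 on the other strand. Rps13-ps1 lies at chr8:87047689-87048226 and Rpl39-ps at chr15:102635038-102635188, both on the plus strand and outside protein-coding genes, the only type looked up.
Rpl14: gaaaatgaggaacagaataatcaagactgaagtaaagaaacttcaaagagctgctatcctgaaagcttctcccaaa
Rpl14-ps1: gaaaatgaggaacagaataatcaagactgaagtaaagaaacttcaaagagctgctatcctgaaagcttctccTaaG
Rps13: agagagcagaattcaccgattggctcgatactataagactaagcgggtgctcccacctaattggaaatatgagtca
Rps13-ps1: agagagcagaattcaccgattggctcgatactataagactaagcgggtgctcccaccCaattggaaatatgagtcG
Rpl39: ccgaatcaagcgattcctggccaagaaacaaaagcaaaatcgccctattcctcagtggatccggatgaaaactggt
Rpl39-ps: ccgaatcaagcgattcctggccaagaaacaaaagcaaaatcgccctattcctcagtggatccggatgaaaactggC
Even in their most divergent stretch, Rpl14-ps1 and Rps13-ps1 differed from the parent at 2 bases and Rpl39-ps at 1. Of the stretches of read length, 67.5% were identical between Rpl14 and Rpl14-ps1 and 88.6% between Rps13 and Rps13-ps1. The coding sequence of Rpl39 holds 78 such stretches, of which 20 were identical in Rpl39-ps, and 3 of its bases did not align. Rps6-ps4, Rps12-ps3, Rpl15-ps3, Rpl10-ps3 and Rpl27-ps3 matched the whole coding sequence of the parent, so only bases outside it can separate a read of either gene.

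All 77 parent genes were expressed, which means here that both libraries had at least 1 TPM, against 33.0% of all genes. Their median was 529.1 and 476.1 TPM. Levels spanned 20.9 to 4255 TPM in replicate 1 and 20.2 to 5473 TPM in replicate 2. In each library 21 parents stood at 1000 TPM or more and 7 under 100 TPM, and 35 and 31 lay within 2-fold of the median. Together the parents held 2.337% of gene counts in replicate 1 (95% Wilson interval 2.332 to 2.341) and 2.399% in replicate 2 (2.395 to 2.403). Those intervals cover counting error only. By TPM, which weights short mRNAs up, the share was 6.714% and 6.556%. The 46 large-subunit parents had a median of 446.5 and 418.4 TPM and the 31 small-subunit parents 790.3 and 631.7 TPM.

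Rplp1, which encodes a stalk protein, was the highest parent at 4255 and 5473 TPM, from 44189 and 69023 counts. Rps12, of the small subunit, followed at 3411 and 3557 TPM. Rps21, also of the small subunit, was at 2813 and 3311 TPM. Rpl13a, a large-subunit gene often used as a reference gene, was at 2854 and 2536 TPM. Its neighbours in the order were Rps26, at 2498 and 1932 TPM, and Rplp0, at 2306 and 1982 TPM. Rplp1 was first in both libraries, while the order of Rps21, Rpl13a and Rps26 was not the same in the 2 libraries. Some ribosomal proteins have symbols outside the rule. Rack1, a scaffold on the small subunit, was at 1578 and 1660 TPM. Fau, which encodes a ubiquitin-like fusion of a ribosomal protein, lay within the range of the parents at 438.0 and 404.4 TPM. Rps27a, a ubiquitin fusion which the rule includes, was at 169.7 and 150.9 TPM.

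The lowest parent was Rpl5, which encodes a protein that binds ribosomal RNA together with Rpl11, at 20.9 and 20.2 TPM. Rpl39 was at 41.0 and 43.5 TPM, Rpl27 at 45.0 and 54.7 TPM, Rps13 at 71.1 and 79.6 TPM and Rpl21 at 94.3 and 68.4 TPM. In each of these 5 families processed copies were assigned over 10% of the counts in both libraries, against 18 of all 77 families (23.4%). Of the other parents under 100 TPM in a library, Rpl22 and Rps20 had next to none. Copies held 0 and 0.05325% in the family of Rpl22, at 67.9 and 46.2 TPM, and 0 in that of Rps20, at 104.5 and 87.6 TPM. For Rps27, at 91.6 and 141.5 TPM, pseudogene copies held 0. Its retrocopy Rps27rt, which is not among the copies counted here, held 97.8% and 98.1% of the counts of the pair and is described below.

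**Figure D1:**
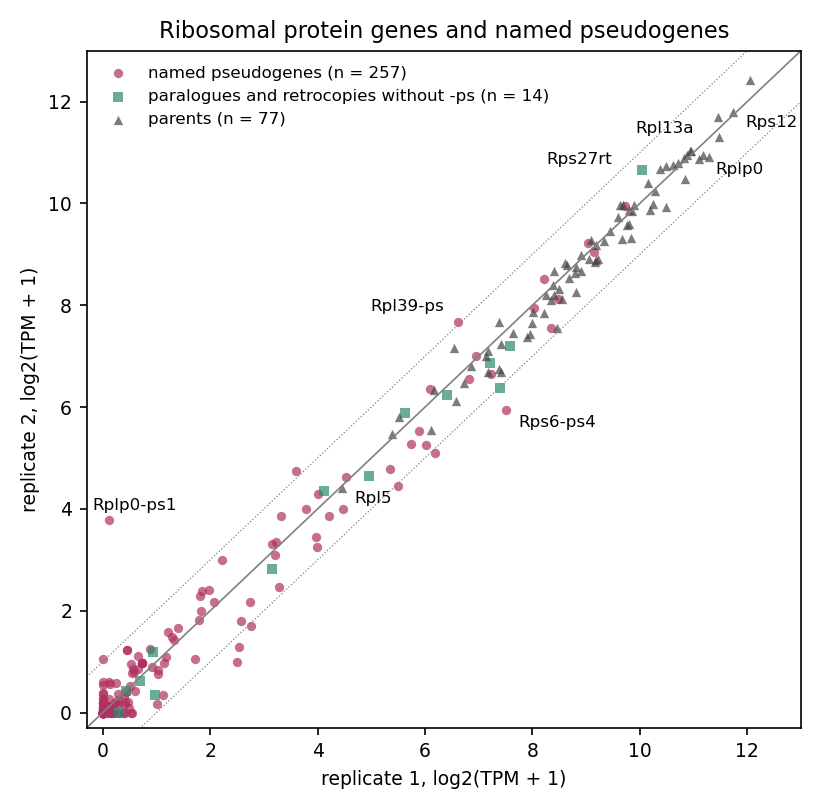
Level of each member in replicate 1 (x axis) and replicate 2 (y axis), as log2(TPM + 1). Triangles are the 77 parents, circles the 257 named pseudogenes and squares the 14 paralogues and retrocopies without -ps. The solid line marks equal levels and the dotted lines a 2-fold difference. Parents lie between the dotted lines, and Rplp0-ps1 lies farthest from the solid line.

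Parents, like most genes, differed little between the libraries. The ratio used throughout is log2 of (TPM + 1) in replicate 2 divided by that in replicate 1, a scale that shrinks differences between low levels. Of the 77 parents 0 were over 2-fold apart, against 2.70% of the 16920 genes whose expected counts averaged at least 20. No test was run, so this is a count past a fold, and in bulk tissue fewer cells of a type and less RNA per cell cannot be told apart. The parents' median ratio was -0.13 and that of all genes -0.11. Of the 77 parents 67 were within 0.5, a share that was not taken over all genes. The standard deviation of the ratio was 0.29 across parents and 0.43 across all genes, which include genes of lower counts. The parents' median was -0.009 by FPKM. It was 0.065 with TMM-scaled counts, which set the median of all genes at 0.003 and also leave out the length correction of TPM. Across the 77 genes the order of levels was nearly shared (Spearman's rho 0.985, across genes, which are not independent replicates). Still, the deposited TPM intervals of the 2 libraries did not overlap for 64 parents, 24 higher in replicate 2 and 40 in replicate 1. These intervals reflect estimation within a library, and their level is not stated in the tables. Intervals were not compared over all genes, so the count cannot be read as a trait of the parents. By ratio, 47 parents were negative and 30 positive, against 10962 and 5893 of all genes under the same minimum count.

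Parents that were low in replicate 2 relative to replicate 1 included Rpl35, Rps25, Rps15a and Rpl22. Rpl35, whose product sits near the exit of the chain tunnel, was at 168.7 and 102.6 TPM (ratio -0.71). Rps25, of the small subunit, was at 166.1 and 106.1 TPM (ratio -0.64). Rps15a was at 1442 and 972.4 TPM (ratio -0.57), yet its counts were 7979 and 10077 and its ratio under TMM scaling was 0.18. The deposited effective length of Rps15a was 148.4 nt in replicate 1 and 223.1 nt in replicate 2, so the direction for this gene turned with the length correction. A row of 250 nt, Rps15a-203, held 93.9% and 88.7% of its TPM from 1708 and 1086 counts. The effective length of that row was 33.8 and 27.1 nt, so the TPM of Rps15a rests mainly on a short row. Rpl22 had a ratio of -0.55 by TPM and -0.12 under TMM.

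The parents highest in replicate 2 relative to replicate 1 were Rps27, Rplp1, Rps24, Rps29 and Rpl15. Rplp1 had a ratio of 0.36. Rps24 was at 790.3 and 1004 TPM (ratio 0.35) and Rps29, which encodes a zinc-binding protein near the mRNA path, at 1330 and 1647 TPM (ratio 0.31). Rpl15 was at 166.0 and 203.1 TPM (ratio 0.29). Rps27 had the largest ratio, 0.62, from 132.4 and 209.8 counts, and it is taken up with its retrocopy below. The 5 kept a positive ratio under TMM scaling, between 0.40 and 0.49.

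Named pseudogenes were mostly at 0. Of 257, 131 had no count in either library. A total of 49, or 19.1%, were expressed in both libraries, and 55 in each library alone. Among all 5532 processed pseudogenes by GENCODE type, which include most of these members, 5.60% were. Of 470 further pseudogene copies of the parents without -ps in the symbol, described below, 40 were. For a pseudogene of median effective length, 3 counts correspond to 0.358 and 0.297 TPM, so lower levels rest on fewer counts than that. Together the named pseudogenes held 61213 and 70383 counts, which was 5.185% (95% Wilson interval 5.146 to 5.226) and 5.052% (5.015 to 5.088) of the counts of all members. The 10 with the highest count, taken in each library separately, held 84.3% and 85.8% of the pseudogene counts, so a small group carried the class.

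Rpl14-ps1 had the most counts, 10353 and 11897, at 562.6 and 526.5 TPM. Rps12-ps3, in an intron of Pdzd8 on the other strand, had the highest TPM, 840.1 and 990.0, from 8694 and 12440 counts. Rpl27-ps3 was at 521.6 and 595.3 TPM, Rpl15-ps3 at 323.1 and 186.7 TPM and Rpl23a-ps3 at 354.0 and 278.5 TPM. Next were Rps13-ps1 at 294.8 and 363.8 TPM and Rpl10-ps3 at 259.0 and 244.8 TPM. Rpl3-ps1 was at 122.9 and 128.0 TPM, Rps6-ps4 at 181.2 and 60.5 TPM and Rpsa-ps10 at 67.1 and 81.4 TPM. Of the 49 expressed pseudogenes 16 overlapped a protein-coding gene, 6 of them on its strand, against 66 and 18 of all 257. The counts of those on a gene's own strand can include fragments of that gene. TPM of very short rows needs care. Rpl38-ps2 stood at 11.1 and 25.8 TPM from 2.19 and 3.37 counts, since its deposited effective length was 5.29 and 2.81 nt.

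Counts were higher where identity with the parent was higher. Identity here is that of the best BLAST alignment, which counts gaps against a copy, so for copies with gaps it is lower than the differing bases given with the sequences imply. Of the 53 pseudogenes that matched the parent's coding sequence at 99% or more over at least 80% of its length, 31 (58.5%) had a mean count of 20 or more and 7 had no count. Of the other 204, 12 (5.9%) reached that count and 124 had none. All 13 with 100% identity had a count in at least 1 library, and their median count was 892.6 and 710.4. Among the 49 pseudogenes between 90 and 95% by BLAST, 42 had no count, and Rplp0-ps1, at 94.1% by BLAST, was the 1 that reached a mean of 20. With gaps left out its identity was 95.7%, at the lower edge of the next class. This is a description across genes, and no part of it separates transcription of a copy from reads of the parent assigned to it. That was not tested.

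**Figure D2:**
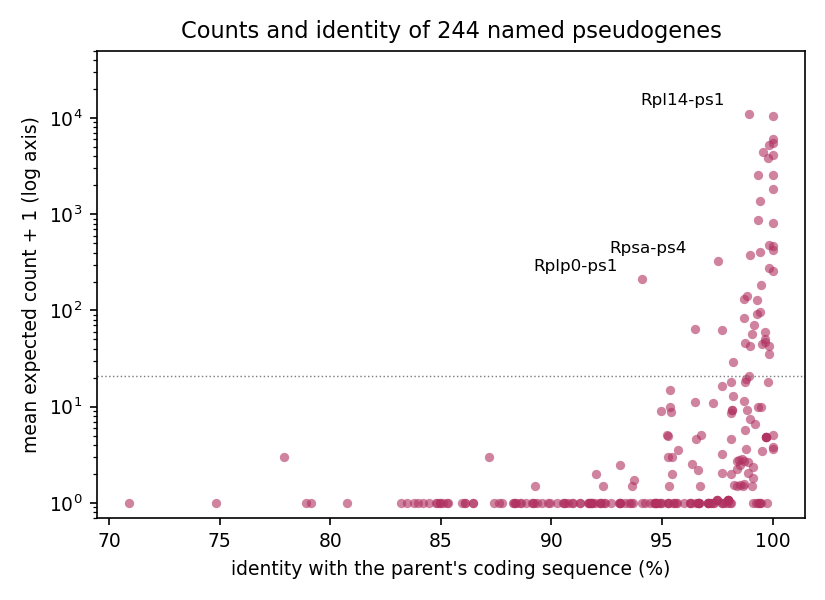
Mean expected count of both libraries plus 1 (y axis, log scale) against BLAST identity with the parent's coding sequence, gaps counted (x axis, %) for the 244 named pseudogenes aligned over at least 80% of it. Each circle is 1 pseudogene, and the dotted line marks a mean count of 20. High counts gather near 100%, and Rplp0-ps1 stands apart at 94.1%.

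The authors' posterior standard deviation of each count shows how far the division between parent and copy was settled. For Rps12 the posterior mean was 33014 with a standard deviation of 144.1 in replicate 1, and for Rps12-ps3 it was 8694 with 143.9. In replicate 2 it was 41721 (155.5) and 12442 (155.5). For Rpl14 and Rpl14-ps1 the standard deviation was 85.2 for both in replicate 1 and 84.8 for both in replicate 2. Parent and copy thus had nearly equal errors, which were small against counts of this size. They take the annotated transcripts as given. For Rpl7a-ps11 the opposite held. It was listed at a TPM of 0 in both libraries, while its posterior mean count was 219.3 with a standard deviation of 153.4 and 313.2 with 189.5. In all, 13 pseudogenes listed at 0 in both libraries had an upper TPM bound of 1 or more. Some copies cannot be separated at all, since their transcripts are the same sequence. Rps12-ps11 to Rps12-ps15 form a group of 5, Rpl35a-ps2, Rpl35a-ps3, Rpl35a-ps4 and Rpl35a-ps6 a group of 4, Rps12-ps6, Rps12-ps17 and Rps12-ps18 a group of 3, and Rps19-ps1 and Rps19-ps2 a pair.

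Of the 77 parents, 55 had a named pseudogene, and Rps12 had the most, 22. In 11 families named pseudogenes held 10% or more of the counts of parent and pseudogenes together. In 4 of them the pseudogenes were assigned more counts than the parent in both libraries. The Rpl27 family led with 87.3% and 86.6%, where Rpl27 had 734.7 and 1081 counts and its pseudogenes 5032 and 6958. In the Rps13 family the share was 78.6% and 80.1%, in the Rpl14 family 77.0% and 76.4% and in the Rpl23a family 56.4% and 59.3%. In these 4 families the share moved by less than 3 percentage points between libraries. Rpl39 was different, with 45.3% and 61.5%. Rpl15 had 46.2% and 28.7%, and Rps6, which encodes the substrate of the S6 kinases, had 30.4% and 11.9%.

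**Figure D3:**
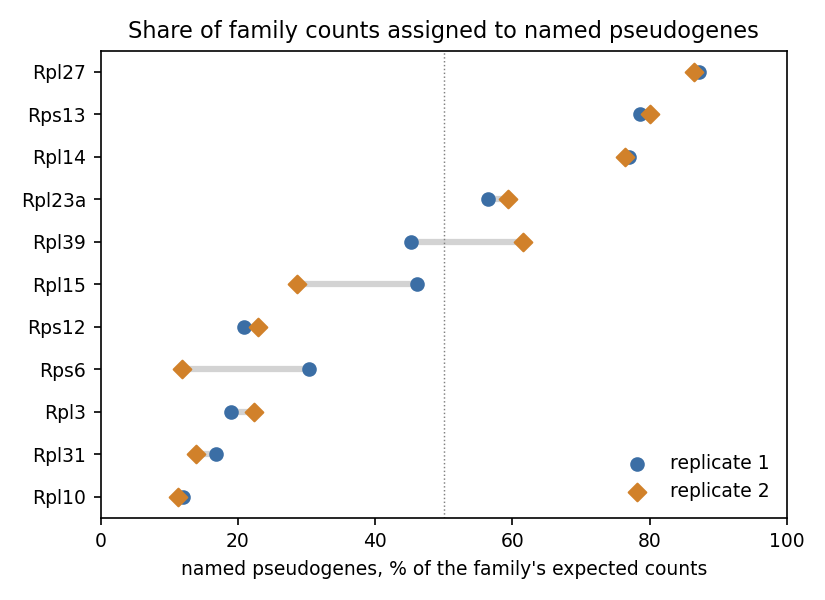
Share of a family's expected counts assigned to its named pseudogenes (x axis, %), for the 11 families with a mean share of 10% or more (y axis). Circles are replicate 1 and diamonds replicate 2, joined by a grey bar, and the dotted line marks 50%. Rpl39, Rpl15 and Rps6 have the longest bars.

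Ratios were wider among pseudogenes than among parents, with a median absolute ratio of 0.42 against 0.22, a difference that was not tested. Among the 43 whose counts averaged at least 20, 6 (14.0%) differed by more than 2-fold, against 2.70% of all genes and 13.3% of 361 processed pseudogenes under the same rule. The share is thus near that of processed pseudogenes in general. Higher in replicate 2 were Rplp0-ps1 and Rpl39-ps, against 1.15% of all genes and 6.65% of processed pseudogenes in that direction. Rpl39-ps was at 96.5 and 203.6 TPM (ratio 1.07), from 498.8 and 1245 counts, and Rpl39 itself was at 602.3 and 778.4 counts. Higher in replicate 1 were Rps6-ps4, Rps16-ps2, Rps15a-ps3 and Rpl28-ps1, against 1.54% of all genes and 6.65% of processed pseudogenes. Rps6-ps4 had 3605 and 1478 counts (ratio -1.57), while Rps6 had 8256 and 10953. The others of this group had ratios of -1.03 to -1.09, and under TMM scaling they were within 2-fold, at -0.44 to -0.90.

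Summing parent and pseudogenes brought the libraries closer in 27 of 55 families, took them further apart in 19 and left 9 unchanged. In the 25 families whose pseudogenes held 1% or more it was 13 closer and 12 further. The median absolute ratio over the 55 was 0.227 for parents and 0.222 for sums. Over the 25 it was 0.160 for parents and 0.207 for sums, a higher median for sums although 13 of the 25 were closer as sums. The largest shifts were in Rpl39, Rpl15 and Rps6. The Rpl39 sum was 137.5 and 247.1 TPM, a ratio of 0.84 against 0.08 for the parent. The Rpl15 sum was 489.6 and 390.5 TPM, a ratio of -0.33 against 0.29, so the direction turned. The Rps6 sum was 661.1 and 566.8 TPM, a ratio of -0.22 against 0.08. In the Rps13 family the ratio went from 0.16 to 0.27, and in the Rpl23a family from -0.52 to -0.41. TPM sums mix transcripts of different length, and a pseudogene shorter than its parent counts for more in TPM than in counts.

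**Figure D4:**
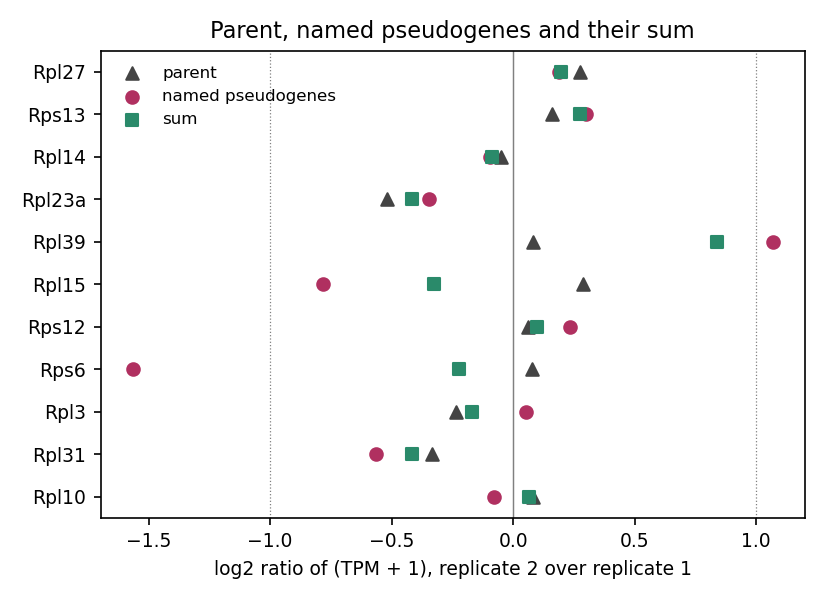
Log2 ratio of (TPM + 1), replicate 2 over replicate 1 (x axis), for the parent (triangle), the summed named pseudogenes (circle) and the sum of both (square), in the 11 families of the plot of pseudogene shares (y axis). Dotted lines mark 2-fold. The sum departs most from the parent in Rpl39, Rpl15 and Rps6, and in Rpl15 and Rps6 it lies on the other side of 0.

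The suffix -ps does not capture all copies. A search of the parents' coding sequences against GENCODE M21 transcripts found 470 further pseudogenes at 90% identity or more over at least 80% of the length, under clone-type names such as Gm15500. They held 40955 and 70661 counts, close to the named ones in replicate 2. Of these counts, 979.2 and 20326 were on copies of Rplp0 alone, so the closeness in replicate 2 leans on that family. Counting all unnamed copies, 72 parents had a pseudogene copy in place of 55. Gm15500, identical to the coding sequence of Rpl5 (chr7:114705217-114706235, minus strand), had 12360 and 12681 counts against 888.9 and 1124 for Rpl5. Copies thus took 93.3% and 91.9% of the Rpl5 family. Gm10275, identical to that of Rpl12 (chr10:29698746-29699380, minus strand), had 9527 and 14633 counts, and copies took 64.2% and 74.9% of the Rpl12 family. Gm7536, identical to that of Rpl27a, had 4723 and 5974 counts. With these copies in the sum, the Rpl5 family stood at 434.5 and 383.0 TPM, against 20.9 and 20.2 TPM for Rpl5 alone.

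Among copies with a mean count of 20 or more, named or not, the largest ratios were those of the Rplp0 copies. The parent had 97065 and 103546 counts (ratio -0.22). Gm8730 had 806.3 and 14429 counts, at 25.2 and 364.9 TPM. Gm9625 had 156.1 and 4622 counts, and Gm14165 had 16.9 and 1275. Rplp0-ps1 had 2.32 and 417.6 counts, at 0.090 and 12.7 TPM (log2 ratio with the pseudocount 3.65). All 4 copies were higher in replicate 2, with ratios of 3.65 to 4.58. Together they held 1.0% and 16.7% of the family's counts, and the family sum was 2338 and 2533 TPM (ratio 0.12). Unlike the identical copies, these differ from the parent at 12 to 40 coding bases, as given with the sequences above. The posterior standard deviation of the Rplp0-ps1 count was 0.63 and 3.14. The count of 2.32 in replicate 1 is under 3, so the ratio of Rplp0-ps1 rests on the pseudocount and is no measure of its fold. Gm6472, a copy of Rps7, showed the same direction with 133.0 and 1618 counts. Of the 39 unnamed copies with a mean count of 20 or more, 5 were over 2-fold higher in replicate 2 and 3 in replicate 1. That share, 20.5%, stood against 2.70% of all genes and 13.3% of processed pseudogenes. What set the Rplp0 copies and Gm6472 apart between the libraries was not tested.

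**Figure D5:**
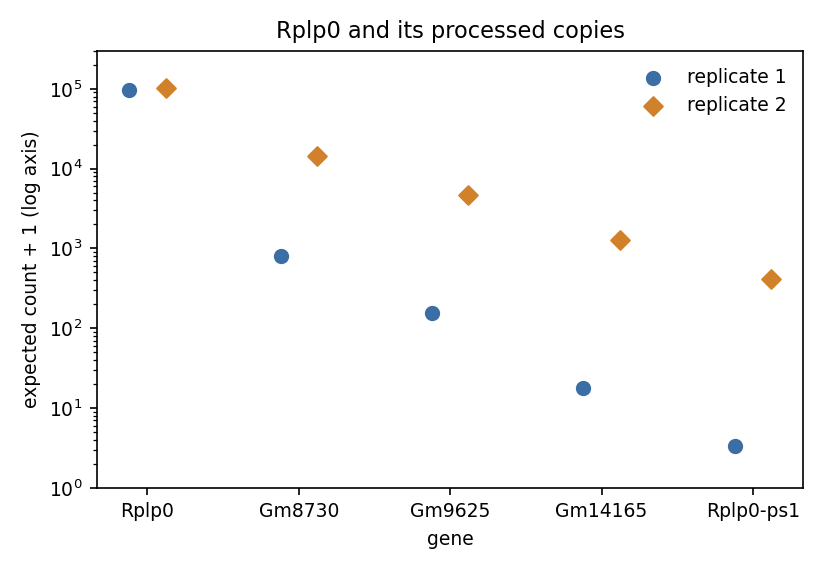
Expected count plus 1 (y axis, log scale) of Rplp0 and its 4 processed copies (x axis), circles for replicate 1 and diamonds for replicate 2. The parent's points nearly coincide, and each copy is higher in replicate 2.

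Among the 14 paralogues and retrocopies without -ps, 9 were expressed in both libraries. Rps27rt, a retrocopy identical to the coding sequence of Rps27, had 6022 and 10974 counts at 1051 and 1612 TPM. It held 97.8% and 98.1% of the counts of the pair, and Rps27, listed with a length of 255 nt against 370 nt for Rps27rt, was at 91.6 and 141.5 TPM. By TPM, parent, copy and sum had the same ratio, 0.62. Under TMM scaling it was 0.40 for Rps27 and 0.71 for Rps27rt. The TPM of Rps27 rests on an effective length of 38.8 and 31.9 nt. Rpl37rt, which differs from Rpl37 at 1 coding base, was at 166.7 and 81.8 TPM (ratio -1.02, and -0.62 under TMM) and held 3.2% and 2.6% of the counts of its pair. Rps3a2 differs from Rps3a1 at 4 bases and held 15.1% and 15.0%, at 84.5 and 74.0 TPM. Rps4l shares no stretch of read length with Rps4x and had 3980 and 3840 counts, at 146.9 and 114.9 TPM. Rpl36al, a paralogue of Rpl36a, was at 191.9 and 145.1 TPM.

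The divergent paralogues that encode proteins by annotation, Rpl36al included, stood below the median of the parents. Rpl3l, the form of Rpl3 known from striated muscle, was at 30.1 and 23.9 TPM, from 878 and 935 counts. Of the forms known from male germ cells, Rpl10l was at 0.96 and 0.27 TPM and Rpl39l at 0.91 and 1.28 TPM. Rps27l was at 48.5 and 58.0 TPM, Rpl7l1 at 16.4 and 19.4 TPM and Rpl22l1 at 7.88 and 6.04 TPM. Rpl6l, Rps3a3 and Rps12l1, which GENCODE types as processed pseudogenes despite their names, were under 1 TPM in both libraries. Rps19bp1 was at 25.1 and 24.3 TPM. Rpl3l, Rpl10l, Rpl39l, Rps27l and Rpl22l1 each shared 0 stretches of read length with the parent's coding sequence.

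Gene totals also mix transcript forms. In the deposited transcript tables the coding forms held a median of 99.3% and 99.4% of a parent's TPM, but under 50% in 5 and 6 parents. By counts it was under 50% in 3 parents in each library, Rpl12, Rps6 and Rpl13a, and most transcripts of the last have no type in M21. For Rps9 a retained-intron form, Rps9-206, was listed at 1088 and 1279 TPM and the coding form Rps9-201 at 710.5 and 598.1 TPM, while by counts the coding forms of Rps9 held 69.1% and 62.3%. For Rps6 a processed transcript, Rps6-202, held 84.5% and 79.4% of the TPM. For Rpl12 a form annotated for nonsense-mediated decay, Rpl12-201, held 72.1% and 64.6%. For Rpl13a, 85.6% and 84.3% of the TPM was on a row of 338 nt whose identifier M21 does not hold, and the matched coding form was at 151.7 and 95.9 TPM. The level of Rpl13a as a gene therefore rests mainly on that short row.

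Start sites were compared as a feature the symbol rule did not use. Ribosomal protein mRNAs are known to begin with a run of pyrimidines, the TOP motif, through which growth signalling controls their translation. RefSeq start sites (GRCm38.p6) were matched by symbol for 59 parents, with 69 start sites. The letters TTTCC on the sense strand within 25 bases on either side occurred at 24.6% of them, against 7.7% of 32851 start sites of all genes. The reverse complement occurred at 4.3% and 7.2%. The longest pyrimidine run in that window had a median of 7 nt in parents and 5 nt overall. The windows of Rps12 (chr10:23787190-23787249, minus strand) and Rpl13a (chr7:45128726-45128785, minus strand) are printed as those of 2 high parents that hold the letters, from 40 bases before the start site to 20 after, with TTTCC in capitals.
Rps12: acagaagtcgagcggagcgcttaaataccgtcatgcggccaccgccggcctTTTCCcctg
Rpl13a: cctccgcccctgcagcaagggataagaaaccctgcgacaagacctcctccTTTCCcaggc
The Rplp0 window did not hold these letters, which says nothing about the factor or the mRNA.

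Genes that work with the ribosome were measured beside its proteins, from lists chosen for this purpose. Each of the 24 translation factors was expressed. Their median level was 173.9 and 144.9 TPM, and 0 of them differed by more than 2-fold, against 33.0% expressed and 2.70% over 2-fold apart among all genes. Eef1a1, the elongation factor that brings transfer RNA, led at 5040 and 4482 TPM, followed by Tpt1 at 1997 and 1930 TPM and Eef2, the translocation factor, at 1762 and 1438 TPM. All 24 genes of ribosome assembly were expressed at a lower median, 15.8 and 11.3 TPM, and 2 of them were over 2-fold higher in replicate 1, against 1.54% of all genes. These were Ncl, which encodes nucleolin, at 10.7 and 4.42 TPM, and Rrs1, an assembly factor, at 17.6 and 7.58 TPM. Of the genes for mitochondrial ribosomal proteins 77 of 77 were expressed, and their median level was 36.1 and 33.6 TPM with 0 over 2-fold apart, against 2.70% of all genes. Mrpl17 was highest among them at 238.8 and 258.6 TPM. Of 10 S6 kinase genes 9 were expressed, with Rps6ka3 highest at 30.2 and 32.0 TPM. All 12 genes of the list of ribosomal protein chaperones and mTOR signalling were expressed, led by Eif4ebp1, a repressor of cap-dependent translation, at 248.1 and 237.7 TPM.

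The libraries held 47106979 and 54129473 gene counts. Markers of fat and of other cell types were present, at levels that differed between the libraries. The 6 adipocyte markers were all expressed and summed to 5933 and 7738 TPM, with 3 higher in replicate 2 and 3 in replicate 1. The 6 epididymis markers, all expressed, summed to 30540 and 20470 TPM, with 4 higher in replicate 1 and 2 in replicate 2. The 5 spermatid markers, all expressed, summed to 529.9 and 346.9 TPM, each higher in replicate 1. The 4 macrophage markers summed to 194.7 and 228.7 TPM, though 3 of them were higher in replicate 1 and their median was 35.2 and 29.2 TPM. Of the 4 skeletal muscle markers 2 were expressed, and the sum was 89.3 and 120.1 TPM. Their part in the differences between the libraries described here was not tested.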

How the data were processed

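Polyadenylated RNA longer than 200 nt was sequenced as stranded 76 nt read pairs in 2 libraries, per the labels. The deposited tables give, per the file headers, an expected count, a TPM, an FPKM, posterior means and TPM bounds for each gene and transcript. The bounds, entered as signal values, and each transcript's percent of its gene's TPM were used as deposited. The accompanying notes name mm10 and GENCODE M4, and no source used here names the aligner or quantifier. Rows other than Ensembl genes held 2.28% and 1.83% of counts and entered no result. Tables of junctions and contigs on mm9 were not used.

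Members and lists were chosen with earlier results of these data known. Genes named are the markers, the 6 highest and 6 lowest parents, the 5 largest ratios each way, paralogues, the leading pseudogenes and families, and list leaders. Some genes that this rule takes are not reported here. Other pseudogenes are given as counts. Copies not named -ps, Gm genes among them, were looked up after their values were seen. Symbols were matched for 42462 of 43346 genes. A gene was expressed at 1 TPM in both libraries, and ratios used a pseudocount of 1. Copies were found with BLAST 2.17.0 against GENCODE M21. Alternatives used posterior means, FPKM, other thresholds and, on expected counts rounded to whole numbers, TMM (edgeR 4.0.16) or size factors (DESeq2 1.42.0). The code of the 2-fold rule was tested on simulated data.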

Additional observations from a re-analysis of the deposited data

How the results depend on the processing

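Expression of the 77 parents and the absence of 2-fold differences among them held under each alternative run. The count of expressed pseudogenes was 62 at 0.5 TPM, 31 at 5 TPM and 55 in each library alone. By posterior mean TPM it was 57, and by FPKM 47. By TPM the parents held 6.635% and the pseudogenes 6.203%, the latter of all members, and with unnamed copies, an alternative chosen after seeing the data, the pseudogene share of counts was 9.0%. The parents' median ratio was -0.009 by FPKM, 0.065 by TMM and 0.074 by DESeq2 size factors. That of pseudogenes was 0.041, 0.061 and 0.070 in the same order, and -0.282 at a mean count of 100 or more. Pseudogenes over 2-fold apart numbered 10 with no minimum count and 3 under TMM or DESeq2 scaling. Families closer as a sum numbered 13 among those with a share of 1% or more, and 28 and 32 under the alternatives added after seeing the data, ratios relative to the median of all genes and sums with unnamed copies. With 1 library left out, the median TPM of parents ranged from 476.1 to 529.1, their share of counts from 2.337% to 2.399% and the pseudogene share from 5.052% to 5.185%. No paired analysis was possible because there is 1 group. With 2 libraries the spread cannot be separated from a single unusual library. Depth limits the pseudogenes of few counts.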
